A study of Drosophila melanogaster with 38 samples.

Results

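The later loss of the O-GlcNAc label from chromatin was followed in OGA-null larvae of Drosophila melanogaster between 8 and 24 h of chase. It was read from the 10 O-GlcNAc-seq libraries collected at 8, 12, 16, 20 and 24 h, of 38 libraries in the series. The authors combined both replicates of a time in 1 column, which leaves 5 of 16 signal columns, each with a value for all 1883 peaks of the deposited list. Every peak was kept, and no filter on signal was applied.

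The OGA-null larvae carried a knockout of OGA, the hydrolase that takes O-GlcNAc off proteins, in an Oregon R background. They were raised for 36 h on food with 150 uM Ac4GalNAz, a sugar bearing an azide, and then moved to control food with the DMSO solvent alone for the stated hours. WT larvae, Oregon R flies with OGA, were fed and collected in the same way, with 2 biological replicates per genotype and time. Whole larvae, from many bottles of parents for each time course, were fixed together, so cell types and tissues are mixed in every value. Larvae kept off the azide sugar were not analysed here, and the values therefore come without a measured background. No total per library was given and the sequencing depth is unknown.

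O-GlcNAc is a single sugar carried by serine and threonine residues of proteins in the nucleus and cytoplasm. One transferase, OGT, adds it and one hydrolase, OGA, removes it. In Drosophila OGT is the product of super sex combs, a Polycomb group gene, and the Polycomb group protein Polyhomeotic is a known substrate on chromatin. In a pulse and chase of this kind the label marks proteins modified during feeding, and it can leave a site with the sugar or with the protein that carries it. The assay does not separate these routes.

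Signal is the value the authors deposited for a peak, a scaled coverage that adds up along its bases, and signal per base is that value divided by the peak's width. Share kept is the signal at a later time divided by that of the same peak at an earlier time. The scaling between columns remains not given in the sources used here, so the median shares rest on it, while the order of peaks within a column does not if both libraries of a column had 1 factor. With 1 combined value per time there is no spread between replicates and no test. Medians, percentiles and correlations below describe peaks, which share libraries and are not replicates.

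The signal of the median OGA-null peak declined slowly from 8 to 16 h and steeply from 16 to 24 h. At 8, 12, 16, 20 and 24 h the median signal per base was 17.1, 14.3, 11.7, 6.95 and 2.79. Between the 5th and 95th percentiles of peaks it spanned 13.0 to 22.8 at the first of these times and 1.55 to 4.73 at the last. The 8 h and 24 h ranges did not overlap between those percentiles, and no peak was listed at 0.

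Relative to its own 8 h signal, the median peak stood at 83.6%, 68.3%, 40.6% and 16.5% in the 12, 16, 20 and 24 h columns. All 1883 peaks (100% of those compared) had under 50% of their 8 h signal at 24 h. The largest share kept from 8 to 24 h was 36.4% and the smallest 3.55%.

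**Figure D1:**
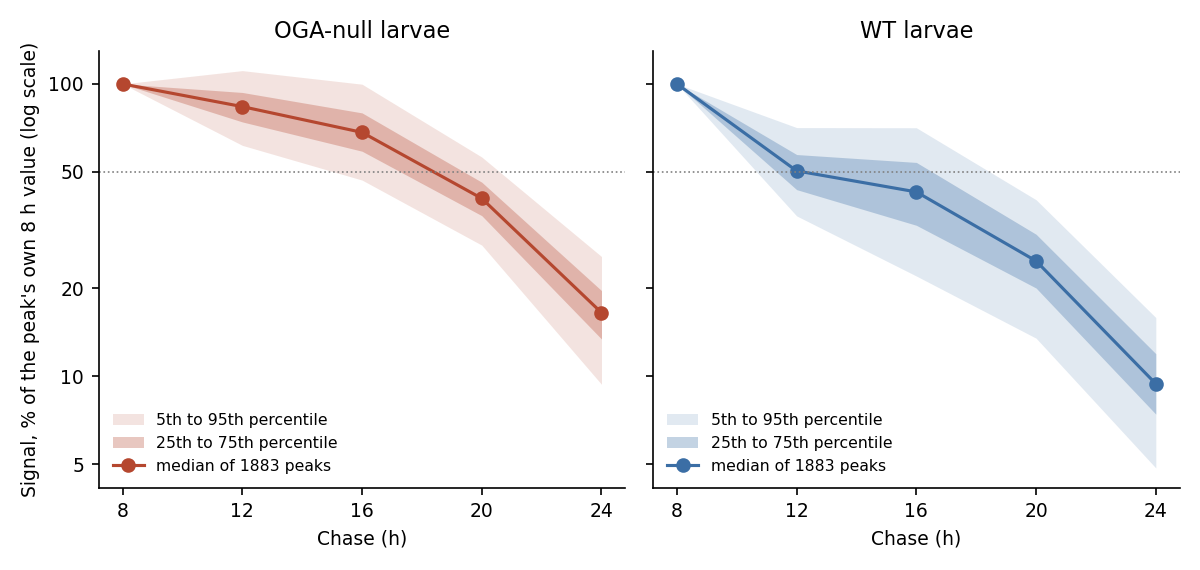
Signal of each peak as a percentage of its own 8 h value (log scale) against hours of chase, in OGA-null larvae on the left and WT larvae on the right; points are medians over 1883 peaks and bands are percentiles over peaks, not errors between replicates. The OGA-null median stays at 68.3% by 16 h and reaches 16.5% at 24 h, while the WT median is already at 50.4% by 12 h.

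Taken by intervals of 4 h, the share kept by the median peak was 83.6% from 8 to 12 h, 82.6% from 12 to 16 h, 59.3% from 16 to 20 h and 40.3% from 20 to 24 h. The first pair of intervals was alike and each later one kept less. As a rate, the median loss was 0.064 log2 per hour, then 0.069, 0.19 and 0.33 log2 per hour. These rates correspond to apparent half-lives of 15.5, 14.5, 5.30 and 3.05 h, if loss within an interval were exponential.

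The break lay at 16 h in the median. The rate from 16 to 20 h was 2.74 times that from 12 to 16 h, and the rate from 20 to 24 h was 1.74 times that from 16 to 20 h. The whole of 16 to 24 h ran at 3.75 times the rate of 8 to 16 h. The steep stretch had slower ones on both sides: the median peak kept 76.8% from 4 to 8 h (0.095 log2 per hour) and 55.0% over the 12 h from 24 to 36 h (0.072 log2 per hour).

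Most single peaks had their largest loss after 16 h. From 20 to 24 h 1500 of 1883 peaks (79.7%) had their largest loss, from 16 to 20 h 360 peaks, from 12 to 16 h 19 peaks and from 8 to 12 h 4 peaks. The smallest loss was about equally often in the first interval (887 peaks) and in the second (882 peaks). Each interval took a larger share than the one before it in 501 of 1883 peaks, so most peaks did not steepen at every step. For the pair of intervals that have no column in common and lie farthest apart, 1853 peaks (98.4%) lost more from 20 to 24 h than from 8 to 12 h, with a median difference of -1.05 log2. These counts share the scaling of the columns. With the 24 h column left out, which was tried only after the values were known, the largest loss lay between 16 and 20 h in 74.0% of peaks. In WT larvae 61.1% of peaks had their largest loss from 20 to 24 h, and 70.6% lost more then than from 8 to 12 h.

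The number of peaks above their own earlier value dropped as the decline went on. At 12 h 264 peaks (14%) were higher than at 8 h, and at 16 h 387 peaks (20.6%) were higher than at 12 h and 91 (4.83%) higher than at 8 h. At 20 h 18 peaks (0.956%) were higher than at 16 h, and at 24 h none (0%) was higher than at 20 h. Peaks that kept under 50% over an interval ran the other way, with 9 peaks (0.478%), 44 peaks (2.34%), 452 peaks (24%) and 1468 peaks (78%) in the 4 intervals.

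Peaks with under 50% of their 8 h signal numbered 9 in the 12 h column, 156 (8.28%) in the 16 h column, 1625 (86.3%) in the 20 h column and 1883 in the 24 h column. By straight lines on the log2 scale between times, the median peak crossed 50% of its 8 h signal at 18.4 h of chase, 10.4 h after the 8 h collection. The 5th and 95th percentiles of this crossing were 15.4 and 20.4 h of chase. Most peaks thus crossed within an interval of about 5 h in these columns.

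WT larvae differed in the first interval and much less in the later 3. In that first interval the median share was 83.6% in OGA-null larvae and 50.4% in WT larvae, with the larger share in OGA-null larvae at 1823 of 1883 peaks (96.8%). From 12 to 16 h the medians were 82.6% in OGA-null and 85.7% in WT larvae. From 16 to 20 h they were 59.3% in OGA-null and 57.5% in WT larvae, and from 20 to 24 h 40.3% in OGA-null and 38.1% in WT larvae. The larger share was in OGA-null larvae at 47.1% of peaks in the second interval, 51.6% in the third and 54.4% in the fourth.

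Counts of peaks gave the same picture. From 8 to 12 h 0.478% of peaks kept under 50% in OGA-null larvae and 48.8% in WT larvae, and 14% were higher at 12 h in OGA-null larvae and 0.159% in WT larvae. In the later intervals the shares of peaks that kept under 50% were 2.34%, 24% and 78% in OGA-null larvae and 9.19%, 35% and 72.9% in WT larvae. Peaks above their earlier value made up 20.6%, 0.956% and 0% in OGA-null larvae and 32.4%, 9.4% and 2.18% in WT larvae. Set against 8 h, peaks under 50% made up 8.28% at 16 h and 86.3% at 20 h in OGA-null larvae, and 67.1% and 99.2% at these times in WT larvae. The median crossing of 50% came at 18.4 h of chase in OGA-null larvae and at 12.1 h in WT larvae.

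The stepwise steepening after 16 h therefore appeared in the columns of both genotypes. Loss that quickens with the age of the larvae and scaling that differs between collection times cannot be told apart in these columns. No test of the genotype difference was possible. For 8 to 24 h as a whole the medians were 16.5% in OGA-null and 9.42% in WT larvae, a median difference over peaks of 0.81 log2, of which 0.74 log2 was already there from 8 to 12 h.

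**Figure D2:**
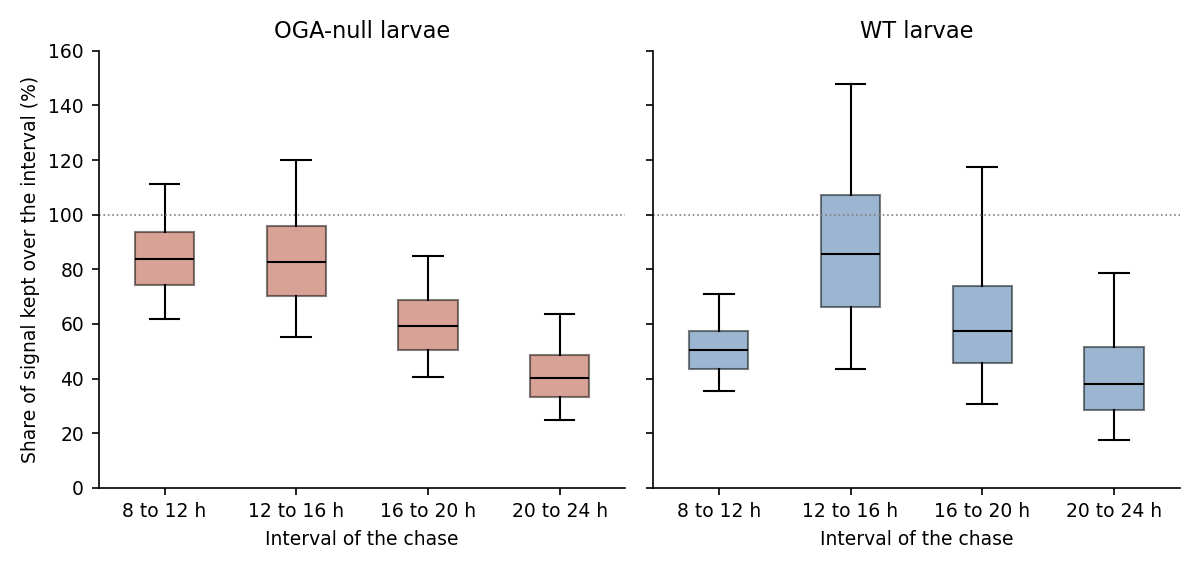
Share of signal kept over each interval of 4 h, in OGA-null larvae on the left and WT larvae on the right; lines are medians, boxes the 25th to 75th and whiskers the 5th to 95th percentile over 1883 peaks, and the dotted line marks no loss. The genotypes stand apart from 8 to 12 h (83.6% and 50.4%) and have similar medians from 12 h on, while the WT boxes are wider.

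The spread over peaks was smallest in the first interval and largest in the last. The SD over peaks of the log2 share kept was 0.26 from 8 to 12 h, 0.35 from 12 to 16 h, 0.33 from 16 to 20 h and 0.42 from 20 to 24 h. The 95th percentile was 1.80 times the 5th in the first interval and 2.58 times in the last. In WT larvae, whose signal was lower at each time, the SD was 0.32, 0.55, 0.61 and 0.68 in the same intervals. Signal was lowest where the spread was widest in both genotypes, and its part in the spread was not tested.

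Narrow peaks spread most. In the 679 peaks of 20 bp, the minimum width, the SD of the log2 share was 0.30 from 8 to 12 h and 0.48 from 20 to 24 h. In the 295 peaks over 100 bp it was 0.17 and 0.30 in the same intervals. The spread of 20 bp peaks was 1.53 to 1.76 times that of peaks over 100 bp in the 4 intervals.

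The typical share hardly depended on width. From 8 to 24 h peaks over 100 bp kept a median of 16.8%, peaks of 51 to 100 bp 17.0%, peaks of 21 to 50 bp 15.9% and peaks of 20 bp 16.4%. Across all peaks the Spearman's rho of share and width was 0.0713, and it turned to -0.123 when 10 was added to every signal. The break at 16 h was present in each width class: medians from 12 to 16 h lay between 80.0 and 83.6% and from 16 to 20 h between 58.1 and 60.6%.

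**Figure D3:**
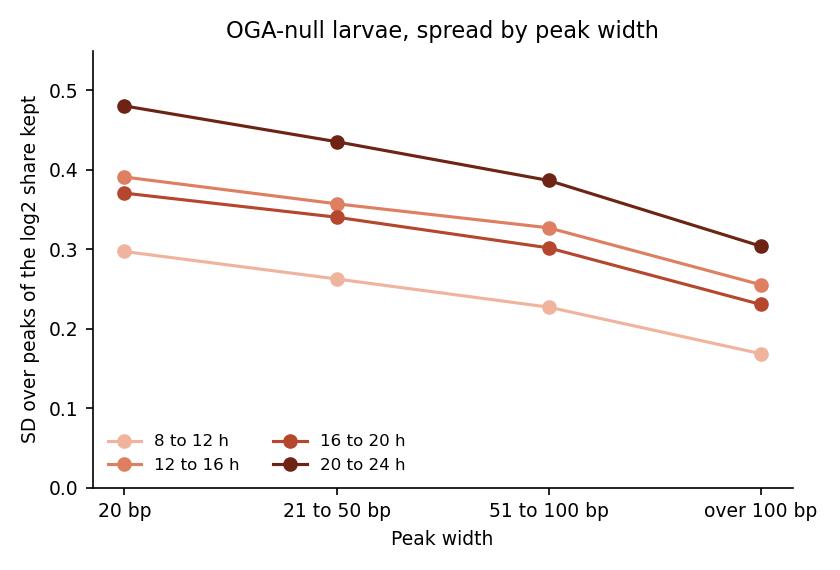
SD over peaks of the log2 share of signal kept (vertical axis, from 0) in 4 classes of peak width, with 1 line per interval of the chase in OGA-null larvae. Every line falls from the 679 peaks of 20 bp to the 295 peaks over 100 bp, and the 20 to 24 h line is the highest throughout (0.48 to 0.30).

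Peaks that were slow in one interval were only weakly the slow ones in another. Adjacent intervals share a column, which ties them through that column's error, so 5 pairs of intervals without a common column were compared. Shares kept from 8 to 12 h had a rho of 0.0129 with those from 16 to 20 h, 0.0111 with those from 20 to 24 h and 0.0251 with those from 16 to 24 h (1883 peaks each). Over all peaks, the share kept in the first interval thus said next to nothing of later shares in these columns. With 16 to 24 h its rho was -0.0490 in peaks of 20 bp and 0.0799 in peaks of 21 to 50 bp. It was 0.103 in peaks of 51 to 100 bp and 0.0669 in peaks over 100 bp. Without replicates, error in these ratios cannot be told apart from a lack of agreement.

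A pair of later intervals was more alike. The share kept from 12 to 16 h had a rho of 0.203 (Pearson's r of the logs 0.198) with that from 20 to 24 h, and the share from 8 to 16 h a rho of 0.220 with that from 20 to 24 h. Of the slowest 10% of peaks from 12 to 16 h, 34 of 188 (18.1%) were again among the slowest 10% from 20 to 24 h, where unrelated lists would share 10%. For 8 to 12 h and 16 to 20 h it was 24 of 188 (12.8%).

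In size the agreement was small. The 377 peaks that kept most from 12 to 16 h (median 111%) kept a median of 43.8% from 20 to 24 h, against 37.2% in the 377 that kept least (median 60.6%). The 377 peaks that kept most from 8 to 12 h (median 103%) kept 60.0% from 16 to 20 h, against 59.1% in the 377 that kept least (median 66.1%). The first pair differs by a few percentage points and the second by under 1.

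Agreement by width depended on the pair of intervals. Between 8 to 16 h and 20 to 24 h the rho was 0.352 in the 295 peaks over 100 bp, 0.247 in peaks of 51 to 100 bp, 0.262 in peaks of 21 to 50 bp and 0.145 in the 679 peaks of 20 bp. Between 12 to 16 h and 20 to 24 h it was 0.309 over 100 bp, 0.161 at 51 to 100 bp, 0.211 at 21 to 50 bp and 0.193 at 20 bp. Between 8 to 12 h and 16 to 20 h the widest class had the lowest rho, -0.0328. In WT columns 8 to 16 h with 20 to 24 h had a rho of -0.126, and 12 to 16 h with 20 to 24 h one of -0.108. The difference between genotypes was not tested.

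The 16 and 24 h columns, which close the more alike intervals, also resembled each other most. Across peaks, the signal per base of OGA-null larvae at 16 h had a rho of 0.635 with that at 24 h, higher than that of any other pair of the 5 columns, which had 0.435 to 0.590.

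**Figure D4:**
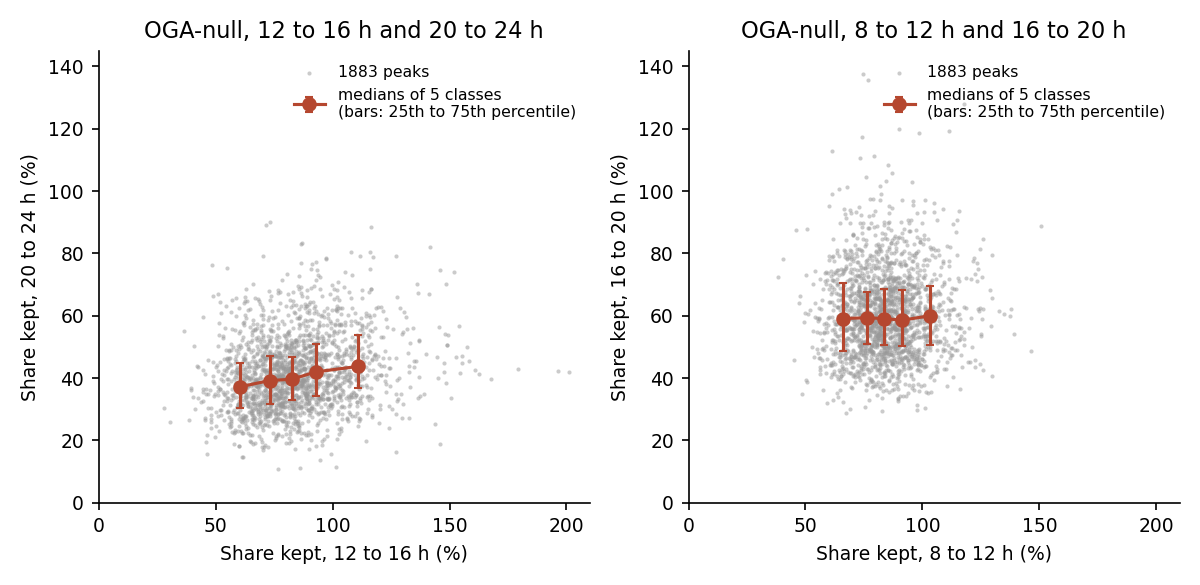
Share kept in a later interval against that in an earlier one with no column in common, for 1883 peaks of OGA-null larvae (grey points) and for 5 classes of about equal size along the horizontal axis (coloured medians with 25th to 75th percentiles). Medians climb from 37.2 to 43.8% on the left (12 to 16 h and 20 to 24 h) and stay between 58.6 and 60.0% on the right (8 to 12 h and 16 to 20 h).

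The share kept by a peak in OGA-null larvae went with that in WT larvae, whose columns are separate, mainly from 12 to 16 h. The rho over peaks was -0.00278 from 8 to 12 h, 0.315 from 12 to 16 h, 0.110 from 16 to 20 h and -0.0598 from 20 to 24 h. Over longer stretches it was 0.322 from 8 to 16 h, -0.0217 from 16 to 24 h and 0.0517 from 8 to 24 h. Of the 4 intervals, 12 to 16 h alone had a rho above 0.2. The step from 0 to 4 h in OGA-null larvae had a rho of 0.111 with the share kept from 8 to 24 h.

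Peaks with more label kept somewhat more of it. The OGA-null 8 h column is the denominator of the share, so the signal per base of other columns was used. Ranked by the WT 8 h column, the top 377 peaks (median signal per base 14.1) kept a median of 18.5% from 8 to 24 h in OGA-null larvae, against 14.3% in the bottom 377 (median 8.11). Across all peaks rho was 0.326. With the OGA-null 4 h signal per base in its place the medians were 17.9% in the highest and 15.3% in the lowest 377 peaks, with a rho of 0.187.

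This dependence came from 8 to 16 h more than from 16 to 24 h. The top 377 peaks by the WT 8 h column kept 77.1% from 8 to 16 h, against 62.4% in the bottom 377 (rho 0.346). From 16 to 24 h they kept 24.4%, against 22.6% in the lowest (rho 0.0868). From 16 to 20 h the order was the opposite, with 57.0% in the highest and 63.2% in the lowest (rho -0.146). From 20 to 24 h it turned back, with 42.8% in the highest and 37.6% in the lowest (rho 0.178). The small rho from 16 to 24 h thus joins 2 intervals of opposite sign. Both values were weaker by the OGA-null 0, 4 and 8 h and WT 0 h columns. There rho lay between -0.0629 and -0.0450 from 16 to 20 h, and between 0.0790 and 0.103 from 20 to 24 h. By the OGA-null 4 h column the highest 377 peaks kept 59.4% from 16 to 20 h and the lowest 377 kept 60.3%.

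The OGA-null 8 h signal per base itself gave the opposite sign where it was the denominator. From 8 to 12 h its highest 377 peaks kept 79.7% and its lowest 377 kept 93.5% (rho -0.329), values that are tied through the shared column. From 8 to 24 h, tied in the same way, the highest kept 16.7% and the lowest 17.2% (rho -0.0463). From 12 to 24 h, where that column is not used, peaks with a higher 8 h signal kept slightly more (rho 0.153).

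By chromosome, the 81 peaks on heterochromatin sequences of the dm3 build lost less than those on the autosomal arms, but not in every interval. Heterochromatin is the compact, repeat-rich chromatin around centromeres. From 8 to 24 h these peaks kept a median of 19.5%, against 16.5% in the 1660 peaks on 2L, 2R, 3L and 3R. The difference was 0.24 log2 in OGA-null larvae and 0.19 log2 in WT larvae.

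In OGA-null larvae the gap opened from 12 to 16 h and from 20 to 24 h. Heterochromatin peaks kept 84.9% from 8 to 12 h, against 83.7% on the autosomal arms. They kept 89.3% from 12 to 16 h, against 82.7%, and 30 of 81 (37.0%) were higher at 16 than at 12 h, against 338 of 1660 (20.4%) on the arms and 20.6% of all peaks. They then kept less from 16 to 20 h, with 53.5% against 59.3% on the arms, and more from 20 to 24 h, with 45.1% against 40.3%. Heterochromatin was thus below the arms in 1 of the 4 intervals and above them in the other 3, by little from 8 to 12 h. From 12 to 16 h the difference from the arms was 0.11 log2 in OGA-null and 0.20 log2 in WT larvae. From 20 to 24 h it was 0.16 log2 in OGA-null larvae but -0.027 log2 in WT larvae, so the later gap was not shared.

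The 3 heterochromatin sequences with more than 3 peaks pointed the same way. The median share kept from 8 to 24 h was 20.6% on 3RHet (28 peaks), 19.2% on 2RHet (28 peaks) and 18.1% on 3LHet (21 peaks). On the arms it was 16.3% on 2L, 16.7% on 2R, 16.4% on 3L and 16.5% on 3R. Heterochromatin peaks are narrow, with a median width of 20 bp against 36 bp on the autosomal arms. Among peaks of 20 bp alone the 41 in heterochromatin kept 18.8% and the 600 on the arms 16.4%, and among wider peaks the 40 in heterochromatin kept 20.5% and the 1060 on the arms 16.6%. Few heterochromatin peaks were among the 25% of peaks with the lowest signal. Without that 25%, 78 of the 81 remained, against 1412 of all 1883 peaks, and the difference from the arms was 0.20 log2. Peaks with more label kept somewhat more in general, and the part of signal in the heterochromatin difference was not tested. The placing of reads from repeats is also not stated.

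Peaks on X lost slightly more. The 141 peaks on X kept a median of 15.2% from 8 to 24 h, against 16.5% on the autosomal arms, a difference of -0.12 log2 in OGA-null larvae and of -0.12 log2 in WT larvae. From 12 to 16 h they kept 78.4%, against 82.7% on the arms, and from 16 to 20 h 60.7%, against 59.3%. The like values from 8 to 24 h joined unlike stretches. From 8 to 16 h the difference was -0.091 log2 in OGA-null and -0.13 log2 in WT larvae. From 16 to 24 h it was -0.054 log2 in OGA-null larvae but 0.15 log2 in WT larvae. From 8 to 24 h the 37 peaks of 20 bp on X kept 12.6% in OGA-null larvae, against 16.4% on the arms. The 104 wider ones kept 15.5%, against 16.6%.

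**Figure D5:**
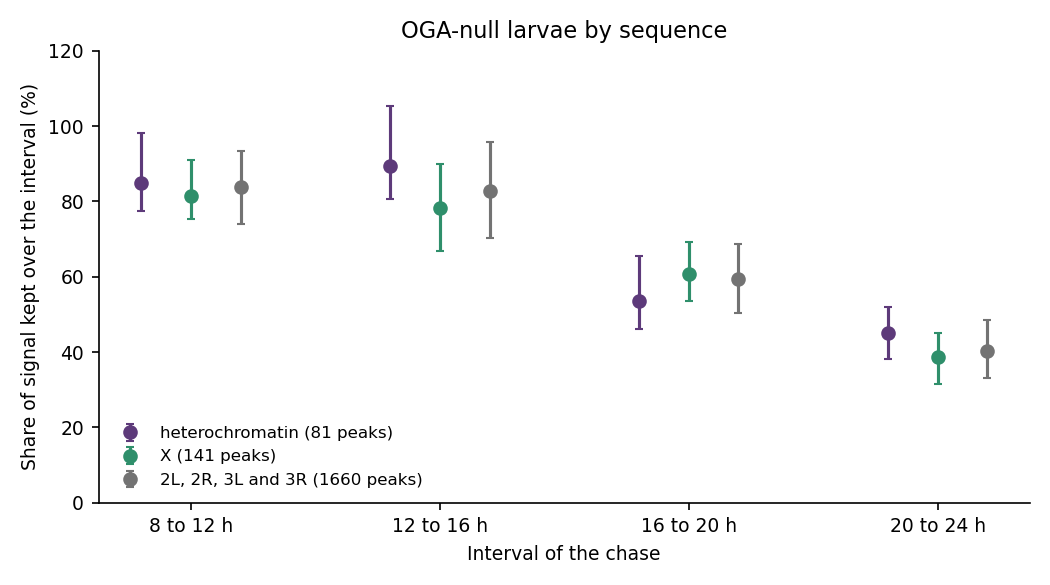
Median share of signal kept over each interval in OGA-null larvae (points) with the 25th to 75th percentile over peaks (bars), for peaks on heterochromatin sequences, on X and on the autosomal arms. Heterochromatin peaks stand above the arms from 12 to 16 h (89.3% and 82.7%) and from 20 to 24 h (45.1% and 40.3%) and below them from 16 to 20 h (53.5% and 59.3%).

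Along the arms the share kept differed somewhat between windows. In 30 windows of 1 Mb that held at least 20 peaks, the median share kept from 8 to 24 h lay between 14.3 and 19.8%. The medians of heterochromatin peaks (19.5%) and of X peaks (15.2%) given above lie within that range. The highest was on 3R from 17000001 to 18000000, with 19.8% over 23 peaks, and the next highest was 17.6%. The lowest was on 3R from 7000001 to 8000000, with 14.3% over 36 peaks. The highest window stood out in 8 to 16 h, with 77.3% kept, and was ordinary from 16 to 24 h, with 24.1%.

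Close neighbours declined alike up to 16 h and less so after it. Of pairs of adjacent peaks up to 200 bp apart (195 pairs), the share kept from 8 to 24 h had a rho of 0.345, that from 8 to 16 h one of 0.414 and that from 16 to 24 h one of 0.157. By interval it was 0.181 from 8 to 12 h, 0.389 from 12 to 16 h, 0.115 from 16 to 20 h and 0.165 from 20 to 24 h. For pairs over 200 bp and up to 1 kb apart (153 pairs) the rho for 8 to 24 h was 0.0418, for pairs 1 to 10 kb apart (514 pairs) 0.0671 and for pairs farther apart (1010 pairs) 0.0593. Peaks within 200 bp can be covered by the same sonicated fragments, so their values are not independent readings.

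Peaks near OGA binding sites of the deposited OGA list differed little from the rest in larvae that lack the enzyme, and the sign depended on the distance allowed. The list gives 3534 intervals for both ChIP-seq libraries together, 1 from OGA knockout and 1 from WT larvae. From 8 to 24 h the 81 peaks that overlapped an OGA peak kept a median of 16.8%, against 16.5% in the other 1802. With an OGA peak within 1 kb the 492 peaks kept 15.7%, against 16.7% in the 1391 without, a difference of -0.10 log2 that is close in size to that of X. From 16 to 24 h the medians were 24.0% with and 23.9% without an overlap.

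Named peaks were taken from the 301 peaks of at least 100 bp, whose shares spread least. Among them the share kept from 8 to 24 h ran from 7.90 to 29.6%, with a median of 16.8%, a 5th percentile of 11.4% and a 95th of 23.8%. Positions are 1-based dm3 coordinates and carry no gene names, since the available gene table belongs to another build.

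The 5 peaks with the most label at 8 h each kept a larger share from 8 to 16 h than from 16 to 24 h. So did the median of all peaks, with 68.3% and 23.9%, so this is no trait of the 5. They were chosen by the 8 h column, which is the denominator of the share from 8 to 16 h. The highest, on 3R at 19685187 to 19685462, had 31.7, 27.1, 24.3, 16.1 and 7.01 per base at 8, 12, 16, 20 and 24 h. It kept 76.7% from 8 to 16 h and 28.9% from 16 to 24 h. In WT larvae the same peak kept 68.9% from 8 to 16 h and 16.8% from 16 to 24 h.

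The next, on X at 1965895 to 1966185, had 30.8, 26.6, 16.7, 12.9 and 4.39 per base at the 5 times. It lost early: 54.3% was kept from 8 to 16 h, below the median of all peaks, and 26.3% from 16 to 24 h. Its share kept was smaller from 12 to 16 h (62.9%) than from 16 to 20 h (77.3%), so its loss did not steepen at 16 h. The peak on 3R at 7394839 to 7395055 had 30.3, 27.8, 20.2, 11.9 and 6.19 per base and kept 66.6% and then 30.6% in the same stretches. On 2L, the peak at 13549160 to 13549351 had 29.4, 26.8, 22.1, 14.3 and 4.56 per base. It kept 82.3% from 12 to 16 h and 20.7% from 16 to 24 h. The fifth, on 3R at 26591380 to 26591737, had 28.9, 27.0, 20.9, 13.2 and 5.24 per base, kept 72.4% and then 25.1%, and lay 299 bp from an OGA peak.

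The peaks of at least 100 bp that kept most from 8 to 24 h are described only, since they were chosen by that share. The first, on X at 1974601 to 1974712, had 19.9 per base at 8 h, 14.9 at 16 h and 5.90 at 24 h, or 29.6% of its 8 h signal. It lay under 10 kb from the peak on X named above for its 8 h signal, which kept 14.3%. On 3L, the peak at 4363999 to 4364122 kept 28.5% and the one at 14267366 to 14267478 kept 27.8%. On 2L, the peak at 8541566 to 8541801 kept 27.1% and the one at 12461212 to 12461403 kept 26.6%.

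The last of these had no net loss up to 16 h: it had 26.7, 27.2 and 26.7 per base in the first 3 columns, and then 13.2 and 7.11 in the 20 and 24 h columns. It thus kept 100.04% from 8 to 16 h and 26.6% from 16 to 24 h. In WT larvae it kept 61.7% from 8 to 16 h and 14.2% from 16 to 24 h.

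At the other end, the peak on 2R at 13300752 to 13300885 kept 7.90% from 8 to 24 h. Its signal per base was 17.3, 17.6, 10.6, 5.52 and 1.36 at the 5 times, so the whole of its loss came after 12 h. On 3L, the peak at 18989735 to 18989878 kept 8.45% and that at 15097488 to 15097610 kept 8.77%. The peak on 2L at 4950126 to 4950235 kept 8.93% and that on 2R at 4015343 to 4015551 kept 9.17%. In WT larvae these 5 kept 13.0%, 6.92%, 8.20%, 9.90% and 9.50% of their 8 h signal. Since these peaks were chosen for a low OGA-null share, the choice itself favours a WT share above the OGA-null one. Over all peaks 89.3% kept more in OGA-null larvae from 8 to 24 h.

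By stretches, and as a description of peaks chosen by their share from 8 to 24 h, the 5 slowest kept 74.8 to 100.04% from 8 to 16 h and the 5 fastest 53.3 to 62.6%. From 16 to 20 h the slow ones kept 46.0 to 58.7% and the fast ones 52.3 to 76.9%. From 20 to 24 h, the interval with the widest spread over all peaks, the slow ones kept 53.9 to 67.5% and the fast ones 18.6 to 25.4%. The ranges overlapped from 16 to 20 h and were apart in the other stretches, as the choice of these peaks favours.

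The 3 widest peaks lay in between. The widest, 557 bp on 3L at 9369687 to 9370243, had 27.3 per base at 8 h and 3.79 at 24 h (13.9%), and it overlapped an OGA peak. The peak of 478 bp on X at 19047364 to 19047841 had 25.4 at 8 h and 3.08 at 24 h (12.2%). The peak of 450 bp on 3L at 6957450 to 6957899 had 22.9 at 8 h and 4.02 at 24 h (17.6%) and kept 83.6% up to 16 h.

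Of the 188 peaks in the slowest 10% from 8 to 12 h, 22 (11.7%) were again in the slowest 10% from 16 to 24 h, close to the 10% that unrelated lists would share. A single one was at least 100 bp wide, on 3R at 12175230 to 12175354. It had 16.9, 17.8, 12.8, 7.53 and 4.42 per base at the 5 times. It kept 105% over the first 4 h, lost most between 16 and 24 h like the other peaks, and still held 26.1% of its 8 h signal at 24 h.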

How the data were processed

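Values came from the deposited O-GlcNAc-seq table, with 1 signal column per genotype and time in which, per the file headers, the authors combined replicates 1 and 2. The signal is scaled coverage summed over a peak: in OGA-null columns its log followed that of width (r over peaks 0.936 to 0.984). Tools and builds listed without a role, per the submitters' processing notes, are bedtools 2.17.0, SAMtools, sacCer3 and dm3. Aligner, peak caller and scaling remain not given in the sources used here. OGA peaks were a deposited list of positions without a score. No per-sample column was left unused.

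Share kept was a ratio of signals without a pseudocount, summarised over peaks in Python 3.11.15 with numpy 2.4.6, pandas 2.3.3 and scipy 1.17.1. Scripts were tested on simulated data. Overlap needed 1 bp. Since columns combine replicates, no test, error between replicates or pairing was possible. The peaks, classes and alternatives were chosen with earlier results of these data known. Windows, neighbours, crossing times and the classes by width of heterochromatin and X peaks were added after seeing the values. Named peaks, all of at least 100 bp, were the 5 with the highest OGA-null 8 h signal per base, the 5 largest and 5 smallest shares kept from 8 to 24 h, the 3 widest, and up to 5 in the slowest 10% both from 8 to 12 h and from 16 to 24 h. No sequence is shown, because no genome of the dm3 build was used here.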

Additional observations from a re-analysis of the deposited data

How the results depend on the processing

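No paired analysis was possible because the deposited columns combine replicates 1 and 2, and for the same reason replicates could not be left out. Of 90 alternative values for 19 results, 63 stayed within the 95% interval of the reported value over peaks and 27 moved out of it. The median share stayed lower from 16 to 20 h than from 12 to 16 h in the 7 settings that gave both. All of these settings use the same columns, so they cannot bear on the scaling between columns. With 10 added to every signal the median shares were 60.2% from 16 to 20 h, 42.8% from 20 to 24 h and 17.9% from 8 to 24 h, the spread from 8 to 24 h was 0.39 log2, and the rho of that share was 0.234 with WT 8 h signal per base, 0.0915 with OGA-null 4 h signal per base and -0.123 with width, where the sign turned. Without the 25% of peaks with the lowest signal the medians were 84.8%, 83.9%, 58.4% and 41.0% in the 4 intervals and 17.0% from 8 to 24 h, the spread was 0.42 log2, and 99.6% of peaks lost most after 16 h. In peaks of at least 50 bp the median from 8 to 24 h was 16.9% and the spread 0.37 log2, 85.2% lost most from 20 to 24 h and 99.7% after 16 h. There the rho of shares kept from 8 to 12 h was 0.0661 with 20 to 24 h and 0.0792 with 16 to 24 h, that of 8 to 16 h with 20 to 24 h was 0.282, and that of the share from 8 to 24 h was 0.0257 with width and 0.235 with OGA-null 4 h signal per base. Summed signals gave 17.0% from 8 to 24 h. Chosen after seeing the data, leaving out the 16 h column gave 93.8% of peaks with the fastest loss from 20 to 24 h, leaving out the 24 h column 74.0% with the largest loss after 16 h, and peaks of 20 bp a difference between X and autosomal arms of -0.38 log2. The difference between peaks with and without an OGA peak changed sign with the distance allowed, as given above. The causes were not tested. Unknown depth limits single narrow peaks most.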
